A study of Mus musculus with 18 samples.

Results

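Calbindin-D9k, encoded by S100g, is the small calcium-binding protein that ferries calcium across the enterocyte, and it was measured here beside 6 other genes of vitamin D-driven calcium uptake in the mouse ileum. The 7 genes were S100g, Trpv6, Vdr, Cyp24a1, Cyp27b1, Atp2b1 and Rxra, each taken by its exact platform symbol, and each matched a single probe set among 22180 genes tested. They were chosen by a measured value, the S100g difference between T cell and marrow-only mice under vehicle, which was the largest rise of all genes. That contrast is therefore described for these genes without a test, and the tests below rest on the other comparisons, above all on the mice given indole-3-carboxaldehyde (ICA), which that choice did not use.

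RNA came from the ileum of 18 B10.BR mice, 8 to 12 weeks old at transplant, taken on day 21 after an allogeneic transplant, with 1 whole-transcript array per mouse. Every recipient had received 11 Gy of total body irradiation and then 5000000 T cell-depleted C57BL/6 marrow cells, so all groups share irradiation and donor marrow, and no untransplanted ileum was analysed here. The marrow-only groups were 4 mice given vehicle (20% DMSO, 40% PEG400 and 2% citric acid) and 5 mice given ICA, an indole that binds the aryl hydrocarbon receptor, gavaged daily at 150 mg/kg from the day before transplant. The T cell groups, a model of graft-versus-host disease, also received 2000000 purified C57BL/6 T cells and held 4 mice given vehicle and 5 given ICA. Values are log2 array signals. Each difference is on the log2 scale and comes with its SE, both from a limma model of the 4 group means, with p adjusted over all 22180 genes by the method of Benjamini and Hochberg. A gene is said to rise or fall only where that adjusted p was under 0.05.

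Calcium crosses the enterocyte in steps. The channel TRPV6 lets it in at the brush border, calbindin-D9k buffers and carries it, and the calcium pump encoded by Atp2b1 (PMCA1) exports it at the basolateral side. The active hormone calcitriol is made by the hydroxylase Cyp27b1 and broken down by the hydroxylase Cyp24a1. It acts through the vitamin D receptor Vdr, which pairs with the retinoid X receptor Rxra on DNA, and S100g, Trpv6 and Cyp24a1 are classical intestinal targets of that pair. Active calcium uptake is strongest in the duodenum, and the large intestine also has it.

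The sequences just upstream of the calcium carrier and of the entry channel are shown because both are textbook targets of the same receptor while their arrays read differently. Each covers the 250 bases before the annotated start (RefSeq, build GRCm38.p6, minus strand, written in the direction of the gene), at chrX:162964600-162964849 for S100g and at chr6:41636406-41636655 for Trpv6. Capitals mark AGGTCA or GGTTCA, core letters of nuclear receptor sites, on either strand.
S100g: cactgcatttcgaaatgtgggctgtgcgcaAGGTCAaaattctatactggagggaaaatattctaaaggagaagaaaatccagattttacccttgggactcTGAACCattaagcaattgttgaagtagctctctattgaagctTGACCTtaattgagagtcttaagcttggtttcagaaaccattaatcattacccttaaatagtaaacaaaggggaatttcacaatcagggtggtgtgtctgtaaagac
Trpv6: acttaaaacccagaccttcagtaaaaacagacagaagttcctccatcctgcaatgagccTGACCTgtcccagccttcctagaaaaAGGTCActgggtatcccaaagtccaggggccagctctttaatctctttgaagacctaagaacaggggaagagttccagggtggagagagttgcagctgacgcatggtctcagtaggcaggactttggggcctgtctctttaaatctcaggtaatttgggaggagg
The S100g window held AGGTCA at 2 places and GGTTCA at 1, and the Trpv6 window held AGGTCA at 2 and GGTTCA at 0. Of 32851 promoter windows of this length, 14% held AGGTCA at 1 or more places and 8.85% held GGTTCA so, on either strand. Windows with more than 1 place were not counted apart. The paired VDR-RXR element was searched as a direct repeat with 3 bases between. Its core was wider, A or G, then G, then G or T, then TCA. It was found in neither window and in 0.0396% of all windows. Windows were listed for 6 of the 7 genes, and Cyp24a1 had none. Of the rest, Rxra held AGGTCA at 2 places in the window at chr2:27709042-27709291 and at 0 in that at chr2:27676951-27677200. Vdr, Cyp27b1 and Atp2b1 held neither AGGTCA nor GGTTCA. A match is a description of letters and not a measured binding site.

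S100g was low in marrow-only mice and high in every mouse that had received T cells. In marrow-only mice given vehicle its signals were 6.11, 5.97, 5.92 and 5.79, with a mean of 5.95 ± 0.13 (SD, n = 4). With T cells and vehicle they were 8.66, 8.47, 10.10 and 9.38, with a mean of 9.15 ± 0.74 (SD, n = 4). These groups are separated by more than 2 log2 units at their nearest mice. The difference was 3.20 ± 0.37, or 9.2-fold, and it is the value that led to the choice of the gene. Its SE does not allow for that choice, and a value picked as the largest of all genes can be overstated.

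The mice given ICA repeat the contrast in animals that the choice did not use. Marrow-only mice given ICA had S100g signals of 5.91, 5.98, 7.67, 6.25 and 6.07, with a mean of 6.38 ± 0.73 (SD, n = 5). T cell mice given ICA had 8.45, 8.75, 9.67, 8.07 and 8.26, with a mean of 8.64 ± 0.63 (SD, n = 5). The lowest T cell mouse lay above the highest marrow-only mouse, so the groups did not overlap, a pattern seen in that direction for 1.16% of all genes (6.33% in the smaller vehicle groups). S100g rose by 2.26 ± 0.33, or 4.80-fold (95% interval 2.97-fold to 7.78-fold, adjusted p = 0.000615, exact permutation p = 0.00794, two-sided and the smallest that 5 against 5 can give). It ranked 5th of 22180 genes by the size of its rise in these mice, and 3.12% of all genes were called there, 1.05% as rises and 2.07% as falls.

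**Figure D1:**
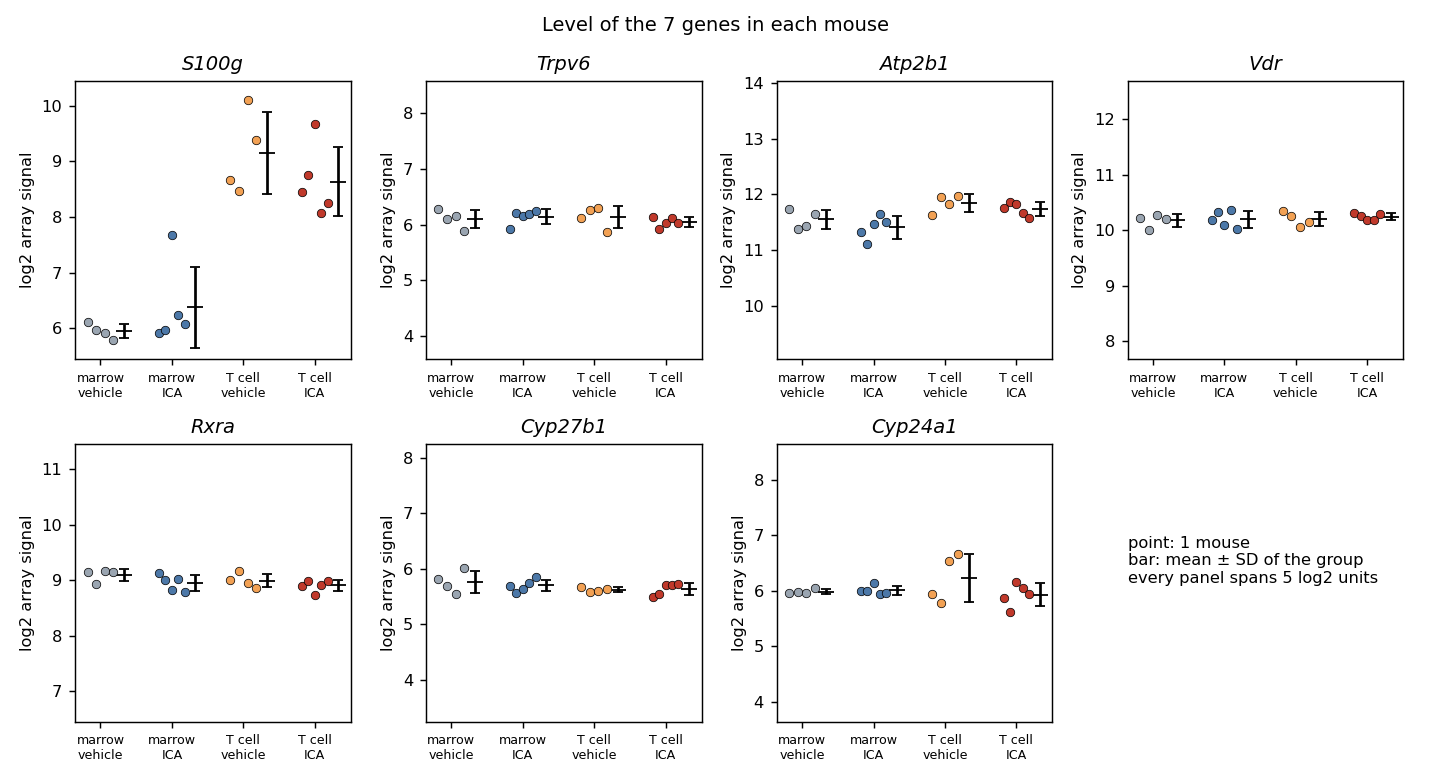
Log2 array signal (vertical axis) of the 7 genes in each of 18 mice by group (horizontal axis); points are mice, bars are the group mean ± SD, and every panel spans 5 log2 units. S100g stands at 8.07 to 10.10 in T cell mice and at 5.79 to 7.67 in marrow-only mice, while the other 6 genes stay within narrow bands.

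ICA itself was not seen to move S100g. Between T cell mice given ICA and those given vehicle it differed by -0.51 ± 0.35 (95% interval -1.25 to 0.22, adjusted p = 0.823), and both sets of signals overlap. In marrow-only mice it differed by 0.43 ± 0.35 (95% interval -0.31 to 1.16, adjusted p = 0.799). Without the marrow-only ICA mouse that had 7.67, that value was 0.10 ± 0.30. The effect of T cells under ICA minus that under vehicle was -0.94 ± 0.50, which did not pass (interaction, 95% interval -1.98 to 0.10, adjusted p = 0.764), and -0.62 without the same mouse. These 3 comparisons share vehicle mice with the contrast that led to the choice of S100g. At this number of mice a lower S100g with ICA in T cell mice, by as much as the -1.25 bound, was not excluded by the interval.

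Trpv6, the entry channel, did not go with S100g. Its signals were 6.28, 6.10, 6.15 and 5.89 in marrow-only mice given vehicle and 6.12, 6.26, 6.30 and 5.86 in T cell mice given vehicle. Under ICA they were 5.92, 6.20, 6.16, 6.20 and 6.25 without T cells and 6.15, 5.92, 6.02, 6.13 and 6.04 with them. All 4 groups overlap. With T cells the channel differed by 0.03 ± 0.11 under vehicle and by -0.10 ± 0.10 under ICA (95% interval -0.30 to 0.10, adjusted p = 0.688). The upper bound corresponds to a rise of 1.07-fold, against 4.80-fold for S100g in the same mice. The Trpv6 signal lies below the median signal of an array, which was 6.47 to 6.51, and an array signal that low may follow a change in RNA only weakly.

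Atp2b1, the exporting pump, was the one other member whose 95% interval under ICA lay apart from 0. It read 11.74, 11.38, 11.44 and 11.65 in marrow-only mice given vehicle and 11.63, 11.95, 11.83 and 11.97 in T cell mice given vehicle. Under ICA it read 11.32, 11.11, 11.46, 11.65 and 11.51 without T cells and 11.76, 11.87, 11.82, 11.67 and 11.57 with them. The ranges overlap by 1 or more mice in both arms. The pump differed by 0.29 ± 0.11 under vehicle and by 0.33 ± 0.10 under ICA (1.26-fold, 95% interval 1.09-fold to 1.45-fold), and the latter missed the threshold over all genes (adjusted p = 0.0682). A further quantile normalization of the arrays, or leaving out marrow-only ICA mouse 4, brought it past the threshold (adjusted p = 0.0473 and 0.0372). Over the other settings tried the adjusted p ran up to 0.162.

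The receptor pair was level across the groups. Vdr read 10.23, 10.01, 10.28 and 10.20 in marrow-only mice given vehicle, 10.35, 10.26, 10.05 and 10.14 in T cell mice given vehicle, 10.02 to 10.36 in marrow-only mice given ICA and 10.18 to 10.32 in T cell mice given ICA. With T cells it differed by 0.02 ± 0.09 under vehicle and by 0.05 ± 0.08 under ICA (95% interval -0.11 to 0.21, adjusted p = 0.808). Rxra ranged from 8.94 to 9.17 in marrow-only mice given vehicle and from 8.86 to 9.16 in T cell mice given vehicle. It differed by -0.11 ± 0.09 under vehicle and by -0.05 ± 0.08 under ICA (95% interval -0.22 to 0.12, adjusted p = 0.826). Both intervals under ICA stay within 0.22 log2 units of 0.

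The enzymes that make and remove the hormone did not pass either. Cyp27b1 ranged from 5.55 to 6.01 in marrow-only mice given vehicle, from 5.58 to 5.68 in T cell mice given vehicle, from 5.57 to 5.85 in marrow-only mice given ICA and from 5.49 to 5.72 in T cell mice given ICA. With T cells it differed by -0.14 ± 0.10 under vehicle and by -0.06 ± 0.09 under ICA (95% interval -0.25 to 0.12, adjusted p = 0.791). Cyp24a1, a sensitive target as well as the breakdown enzyme, read 5.96, 5.98, 5.97 and 6.04 in marrow-only mice given vehicle. In T cell mice given vehicle it read 5.95, 5.78, 6.53 and 6.67, so that mice 3 and 4 stood above all marrow-only mice and mice 1 and 2 below the 4 marrow-only mice given vehicle. In T cell mice given ICA it read 5.87, 5.62, 6.16, 6.05 and 5.94, and in marrow-only mice given ICA 6.00, 6.00, 6.14, 5.95 and 5.96. With T cells Cyp24a1 differed by 0.25 ± 0.15 under vehicle and by -0.08 ± 0.14 under ICA (95% interval -0.36 to 0.21, adjusted p = 0.842). In T cell mice it was lower with ICA than with vehicle by 0.30 ± 0.14, which did not pass (adjusted p = 0.725). All Cyp27b1 signals lay below the array medians of 6.47 to 6.51. So did all Cyp24a1 signals but those of T cell vehicle mice 3 and 4. As with Trpv6, array signals that low may follow a change in RNA only weakly.

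**Figure D2:**
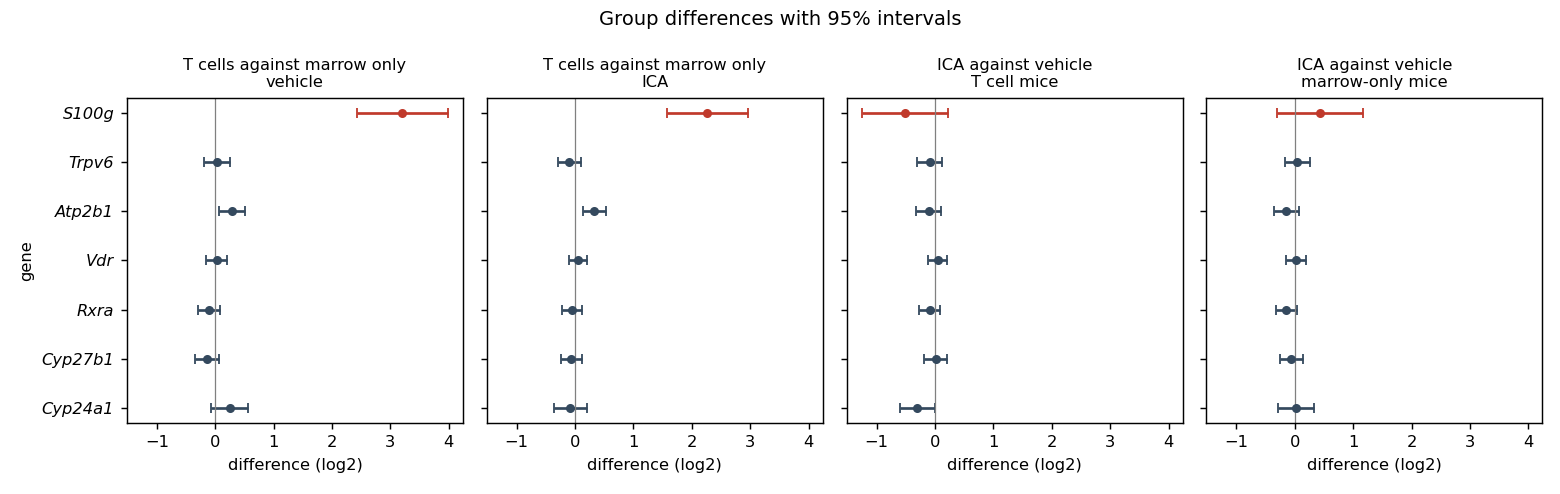
Difference in log2 signal (horizontal axis) of each gene (vertical axis) in 4 group comparisons; points are limma estimates and bars their 95% intervals. S100g lies at 3.20 and 2.26 for T cells against marrow only, and Atp2b1 at 0.29 and 0.33, while the intervals of the other 5 genes in those panels cross 0. The first panel, under vehicle, is a description only, since S100g was chosen by that contrast and its interval there does not allow for the choice.

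Counted together under ICA, S100g was called with T cells and 0 of the other 6 members were, by limma at an adjusted p under 0.05, against 3.12% of all genes. At an unadjusted p under 0.05 the count was 1 of 6, Atp2b1, against 16.6% of all genes. The median difference of the other 6 was 0.03 under vehicle and -0.06 under ICA, beside 0.01 and -0.01 over all genes. Between ICA and vehicle 0 of 7 members were called in T cell mice and 0 of 7 in marrow-only mice, where 0.0135% and 0.00451% of all genes were, and the interaction called 0 of 7 members and 0% of all genes. At an unadjusted p under 0.05 these counts were 1 of 7 (Cyp24a1), 0 of 7 and 0 of 7, against 6.89%, 7.52% and 6.68% of all genes.

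Within the groups S100g and Cyp24a1 did not follow one pattern. In T cell mice given vehicle, mice 3 and 4 had the highest values of both genes, and in each of the ICA groups mouse 3 had the highest value of both. In marrow-only mice given vehicle the order was nearly reversed, since mouse 1 had the highest S100g and the lowest Cyp24a1 and mouse 4 the opposite. With group means removed the correlation over 18 mice was r = 0.57, exceeded by 1.25% of all genes, and 0.60 over the 17 mice left without marrow-only ICA mouse 3. Without that step, and with vehicle and ICA mice pooled, it was 0.70 within the 9 T cell mice. In the same way it was 0.75 within the 9 marrow-only mice. That value rests on marrow-only ICA mouse 3, since it was -0.88 over the other 8. Differences between the vehicle and ICA groups enter these pooled values. Over all 18 mice without that step it was 0.38, with a Spearman rho of 0.04. Atp2b1 showed the reverse, with r = 0.71 over 18 mice but 0.29 once group means were removed, and Trpv6 had -0.09 and 0.04. Rxra and Vdr ran opposite to S100g within groups, at -0.60 and -0.46. Genes on 1 array share its RNA quality and tissue makeup, so these correlations are descriptions only.

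The 5 genes whose pattern was most like that of S100g over the 18 mice by Pearson r were Cd8a (r = 0.92) and Cd8b1 (0.90), which form the co-receptor of killer T cells, Ccl3 (0.90), a chemokine, Ccr8 (0.89), a chemokine receptor, and Tigit (0.89), an inhibitory receptor of lymphocytes. These r take in the difference between T cell and marrow-only mice, and all 5 were lower with group means removed. They were then 0.50 for Cd8a, 0.32 for Cd8b1, 0.46 for Ccl3, 0.52 for Ccr8 and 0.65 for Tigit. Within the 9 T cell mice r was 0.40 for Cd8a, 0.51 for Cd8b1, 0.64 for Ccl3, 0.62 for Ccr8 and 0.78 for Tigit. Within the 9 marrow-only mice it was 0.52, -0.28, 0.39, 0.61 and 0.46 in the same order. By Spearman rho the 5 most alike were H2-Aa, Klrc1, Fasl, Aoah and Tigit, of which only Tigit is shared with the first set. The most opposed were Ncald (-0.93), a neuronal calcium sensor, Creb3l2 (-0.92), a transcription factor of the secretory pathway, and Bhlha15 (-0.89), a transcription factor of secretory cells. With group means removed the 5 highest were Tm4sf19, Tex10, Pmch, Olfr1312 and Afg1l, at r between 0.73 and 0.78. The CD8 chain differed with T cells by 2.02 ± 0.25 under vehicle and 1.98 ± 0.22 under ICA for Cd8a, while S100g differed by 3.20 and 2.26.

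The arrays carried the markers of absorptive cells, and the level of those shared by all gut segments differed little with T cells, while the ileal ones read somewhat higher. The mean of 10 enterocyte markers such as Vil1 and Epcam was 12.13 to 12.34 in marrow-only mice given vehicle, 11.82 to 12.37 in marrow-only mice given ICA, 12.28 to 12.32 in T cell mice given vehicle and 12.16 to 12.30 in T cell mice given ICA. Of these 10, 0 passed under vehicle by limma (2 at an unadjusted p under 0.05) and 1, the sucrase gene Sis, rose under ICA by 0.79 ± 0.17 (adjusted p = 0.01). Under ICA 3 of the 10 had an unadjusted p under 0.05 by limma. That share over all genes was 13% under vehicle and 16.6% under ICA. The 7 measured markers of the ileal segment, among them the bile acid carriers Fabp6 and Slc10a2, had a median difference of 0.21 under vehicle and 0.16 under ICA. Their mean was 11.28 to 11.71 without T cells and 11.77 to 11.90 with them under vehicle, with no overlap, and 10.69 to 11.71 and 11.45 to 11.69 under ICA. Under vehicle 0 of the 7 passed by limma (2 at an unadjusted p under 0.05), and under ICA 1 did, Cubn, which is described with the vitamin D genes. The 9 markers of the proximal small intestine, where calbindin-D9k is best known, had medians of -0.07 and 0.07, and 0 passed under vehicle (1 at an unadjusted p under 0.05), while Rbp2, a retinol-binding protein, rose under ICA by 1.23 ± 0.31 (adjusted p = 0.0337). S100g minus the mean of the 10 enterocyte markers was higher with T cells by 3.14 under vehicle and by 2.07 under ICA, so the difference was nearly as large relative to these markers. In a piece of tissue, more cells with a transcript and more transcript per cell cannot be told apart.

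Markers of other cells did vary with T cells. Of 6 measured colon markers 0 passed in either arm by limma. At an unadjusted p under 0.05 the count was 1 of 6 in each, against 13% and 16.6% of all genes. Their median differences were 0.01 under vehicle and 0.03 under ICA, though Car1 varied between mice. The mean of 6 measured T cell markers was 6.74 to 7.35 and 6.94 to 7.89 in marrow-only mice given vehicle and ICA, and 7.90 to 8.89 and 7.88 to 8.62 in the matching T cell mice. Of the 6, Cd3e, Cd3g, Cd8a and Cd8b1 rose under vehicle. Under ICA Cd8a and Cd8b1 rose, while Cd4, the co-receptor of helper T cells, fell by 0.71 ± 0.19 (adjusted p = 0.0448). The mean of 8 macrophage markers was 7.89 to 8.16 and 7.95 to 8.52 without T cells and 8.53 to 8.88 and 8.28 to 8.90 with them. Csf1r, Mrc1, C1qa and C1qb rose under vehicle, and Csf1r and Mrc1 under ICA. The mean of 3 B cell markers was 6.25 to 6.70 and 5.89 to 7.45 without T cells and 5.52 to 5.73 and 5.37 to 6.15 with them. Cd79a and Cd79b fell in both arms and Ms4a1 under ICA, with median differences of the 3 of -0.71 under vehicle and -0.87 under ICA. Among the smooth muscle markers 6 of 6 (Acta2, Actg2, Myh11, Des, Cnn1 and Tagln) rose with T cells under ICA, against 1.05% of all genes. Under vehicle 0 of 6 passed by limma, where 6 had an unadjusted p under 0.05, against 13% of all genes. Car1, a carbonic anhydrase of colonic epithelium, was 12.04 in marrow-only ICA mouse 3, the mouse with the S100g signal of 7.67, and 4.92 to 6.45 in the other 4 mice of that group. That mouse also had the lowest enterocyte marker mean of all, 11.82. The mean of the 6 colon markers, Car1 among them, was 8.71 there and 7.15 to 7.65 in the other 4. Of the colon markers Car4 and Slc26a3, it had 11.93 and 9.97, against 10.97 to 12.02 and 10.07 to 10.58 in the other 4. Car1 was also high in T cell vehicle mouse 2 (8.94) and T cell ICA mice 1 and 5 (10.31 and 9.29), whose S100g signals of 8.47, 8.45 and 8.26 were not the highest of their groups. These mice are marked out by Car1 alone, and whether colonic tissue had a part in the result was not tested. An omission of the 4 mice with Car1 above 8, decided on once these values were known, left 3 or 4 mice per group. It gave an S100g difference of 3.43 ± 0.31 under vehicle and 2.78 ± 0.31 under ICA (adjusted p = 0.000513 by limma). Without marrow-only ICA mouse 3 alone, S100g rose by 2.59 ± 0.29 under ICA (adjusted p = 7.79e-05).

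**Figure D3:**
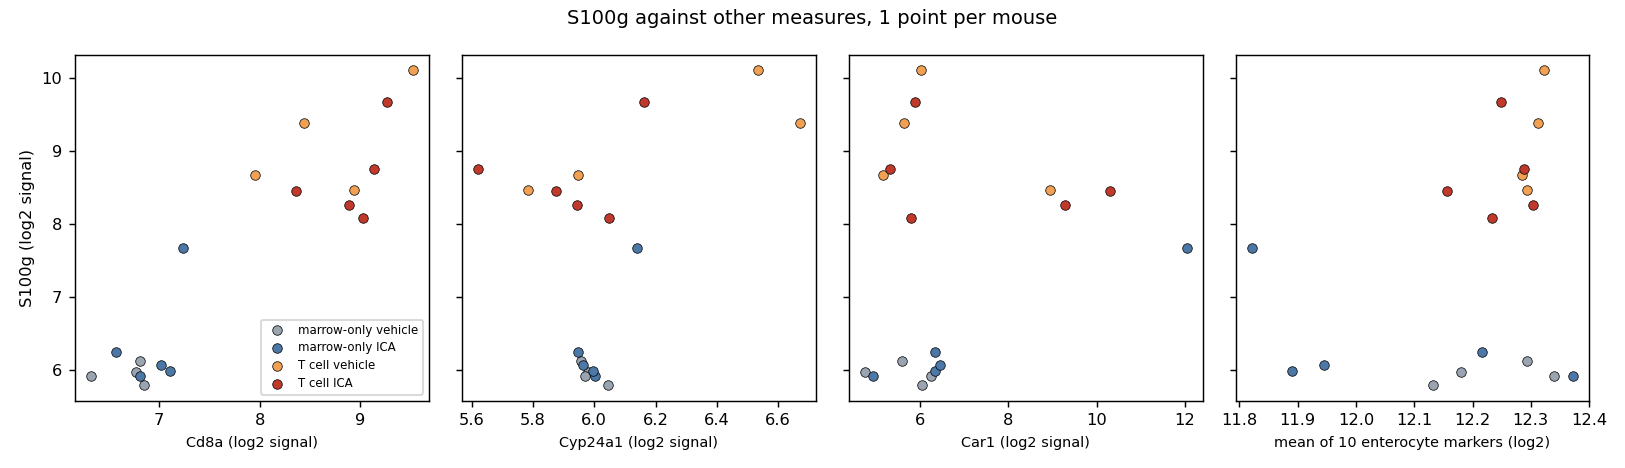
S100g log2 signal (vertical axis) against Cd8a, Cyp24a1, Car1 and the mean of 10 enterocyte markers (horizontal axes, log2), with 1 point per mouse coloured by group. The marrow-only ICA mouse at S100g 7.67 is the one at Car1 12.04 and at the lowest enterocyte mean, 11.82.

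Of 75 other genes of calcium and vitamin D handling, 5 passed with T cells under ICA (6.67%, against 3.12% of all genes) and 3 under vehicle (4%, against 1.47%, made up of 0.794% rises and 0.681% falls). At an unadjusted p under 0.05 the counts were 23 of 75 under ICA and 21 of 75 under vehicle, where 16.6% and 13% of all genes had one. Between ICA and vehicle 0 of 75 passed in either arm, with 9 of 75 in T cell mice and 6 of 75 in marrow-only mice at an unadjusted p under 0.05 by limma, against 6.89% and 7.52% of all genes. The medians of the 75 differences with T cells were 0.04 under vehicle and -0.01 under ICA. The interaction called 0 of 75, with 10 at an unadjusted p under 0.05, against 6.68% of all genes.

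Among 16 genes of calcium entry, buffering and export, 1 rose under ICA and 0 passed under vehicle by limma. At an unadjusted p under 0.05 the counts were 7 of 16 and 5 of 16, against 16.6% and 13% of all genes. The differences went both ways, from -0.34 to 0.51 under ICA and from -0.24 to 0.31 under vehicle. Atp2b4, a further plasma membrane calcium pump (PMCA4), rose by 0.51 ± 0.08 under ICA (adjusted p = 0.00113), from 9.07 to 9.24 without T cells to 9.44 to 9.84 with them. It differed by 0.31 ± 0.09 under vehicle (adjusted p = 0.0915). The exporting pumps Atp2b1 and Atp2b4 thus both read higher with T cells, 1 of them past the threshold. Atp2b2, another plasma membrane calcium pump, differed by 0.06 ± 0.11 under vehicle and 0.06 ± 0.10 under ICA (adjusted p = 0.879 and 0.833 by limma). Of the 16 genes 10 read higher under vehicle and 8 under ICA. Atp2b4 is also a gene of smooth muscle and other cells, and the smooth muscle markers above moved with it. That part was not tested.

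Among 6 genes of vitamin D activation, carriage and uptake, 1 rose in each arm. At an unadjusted p under 0.05 by limma the counts were 2 of 6 under vehicle and 1 of 6 under ICA, against 13% and 16.6% of all genes. Cyp27a1, a sterol hydroxylase that can also act on vitamin D, rose under vehicle by 0.82 ± 0.18 (adjusted p = 0.0255), from 8.30 to 8.74 without T cells to 8.98 to 9.53 with them. That call was lost without mouse 1, 2 or 4 of either vehicle group (highest adjusted p = 0.0986). Under ICA it differed by 0.29 ± 0.16 (adjusted p = 0.388), and in T cell mice it read lower with ICA by 0.75 ± 0.17, which did not pass (adjusted p = 0.204). Cubn, the cubilin receptor of the ileum, which also takes up vitamin D bound to its carrier in the kidney, rose under ICA by 1.78 ± 0.39 (adjusted p = 0.0136). Its marrow-only ICA mice were spread from 8.58 to 11.91, with mouse 3 the lowest, and T cell ICA mice from 11.46 to 12.17. Both groups given ICA therefore overlap for Cubn. It missed the threshold in a model of only the groups compared, with a robust prior and without the 4 mice with Car1 above 8 (highest adjusted p = 0.095, in the last).

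Of 11 measured targets of vitamin D in the gut other than the members, 1 rose under vehicle, and 1 rose and 1 fell under ICA. At an unadjusted p under 0.05 by limma the counts were 6 of 11 and 4 of 11, against 13% and 16.6% of all genes. The differences went both ways. They ran from -0.88 to 1.14 under vehicle, where 7 of 11 read higher with T cells. Under ICA they ran from -0.37 to 0.61, and 6 of 11 read higher. Mt2, a metallothionein that also answers zinc and glucocorticoids, rose in both arms, by 0.75 ± 0.16 under vehicle (adjusted p = 0.0179) and by 0.61 ± 0.14 under ICA (adjusted p = 0.0168). It read 9.80 to 10.22 and 9.55 to 10.596 in marrow-only mice given vehicle and ICA, and 10.62 to 10.95 and 10.605 to 10.81 in T cell mice. Its groups did not overlap in either arm, although the nearest mice under ICA were almost level. It missed the threshold without marrow-only ICA mouse 3 under ICA (adjusted p = 0.0527) and without mouse 2 or 4 of either group under vehicle (highest adjusted p = 0.0668), and without the 4 mice with Car1 above 8 in both arms (adjusted p = 0.116 under ICA and 0.0638 under vehicle). Under ICA it also missed in a model of only the groups compared. Cldn12, a claudin linked to calcium passage between cells, fell under ICA by 0.37 ± 0.08 (adjusted p = 0.00782) and differed by -0.14 ± 0.08 under vehicle (adjusted p = 0.528). A model of only the groups compared put Cldn12 just short of a call, at adjusted p = 0.0544 under ICA.

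Among 10 partners and cofactors of the receptor, Ncoa1, a steroid receptor coactivator, fell under ICA by 0.31 ± 0.08 (adjusted p = 0.0384), and 0 of the 10 passed under vehicle by limma. At an unadjusted p under 0.05 the count was 2 of 10 in each arm, against 13% of all genes under vehicle and 16.6% under ICA. The Ncoa1 call was lost in 8 of 10 omissions of a mouse (highest adjusted p = 0.128), that is without any T cell ICA mouse or without marrow-only ICA mouse 3, 4 or 5. It was also lost without the 4 mice with Car1 above 8 (adjusted p = 0.325), in a model of only the groups compared and with a prior without trend. Among 10 genes of paracellular calcium, magnesium and phosphate transport, Slc20a1, a phosphate carrier, rose under vehicle by 0.75 ± 0.13 (adjusted p = 0.00452) and differed by 0.35 ± 0.11 under ICA (adjusted p = 0.105). In that list 3 of 10 had an unadjusted p under 0.05 by limma under vehicle and 4 of 10 under ICA, against 13% and 16.6% of all genes. Of 9 measured hormones and receptors of calcium balance 0 passed in either arm by limma. At an unadjusted p under 0.05 the counts were 0 of 9 under vehicle and 3 of 9 under ICA, against 13% and 16.6% of all genes. The smallest p under ICA were those of the oestrogen receptor Esr1, at 0.27 ± 0.08 (adjusted p = 0.0895), and Kl, which encodes klotho, at -0.19 ± 0.08 (adjusted p = 0.208).

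The S100 paralogues of calbindin-D9k were not called. Of 13 measured family members 0 passed in either arm by limma. At an unadjusted p under 0.05 the counts were 3 of 13 under vehicle and 2 of 13 under ICA, against 13% and 16.6% of all genes. S100a6, calcyclin, differed by 0.60 ± 0.16 under vehicle (adjusted p = 0.0641) and by 0.31 ± 0.14 under ICA (adjusted p = 0.278). S100a9, a neutrophil protein, differed by 0.39 ± 0.20 and -0.39 ± 0.18 in the same comparisons (adjusted p = 0.411 and 0.266). S100a11 differed by -0.04 ± 0.12 and -0.15 ± 0.11 (adjusted p = 0.928 and 0.524). The family median was 0.22 under vehicle and -0.03 under ICA. With T cells 10 of 13 read higher under vehicle, with differences from -0.13 to 0.87. Under ICA 6 of 13 did, with differences from -0.39 to 0.31.

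**Figure D4:**
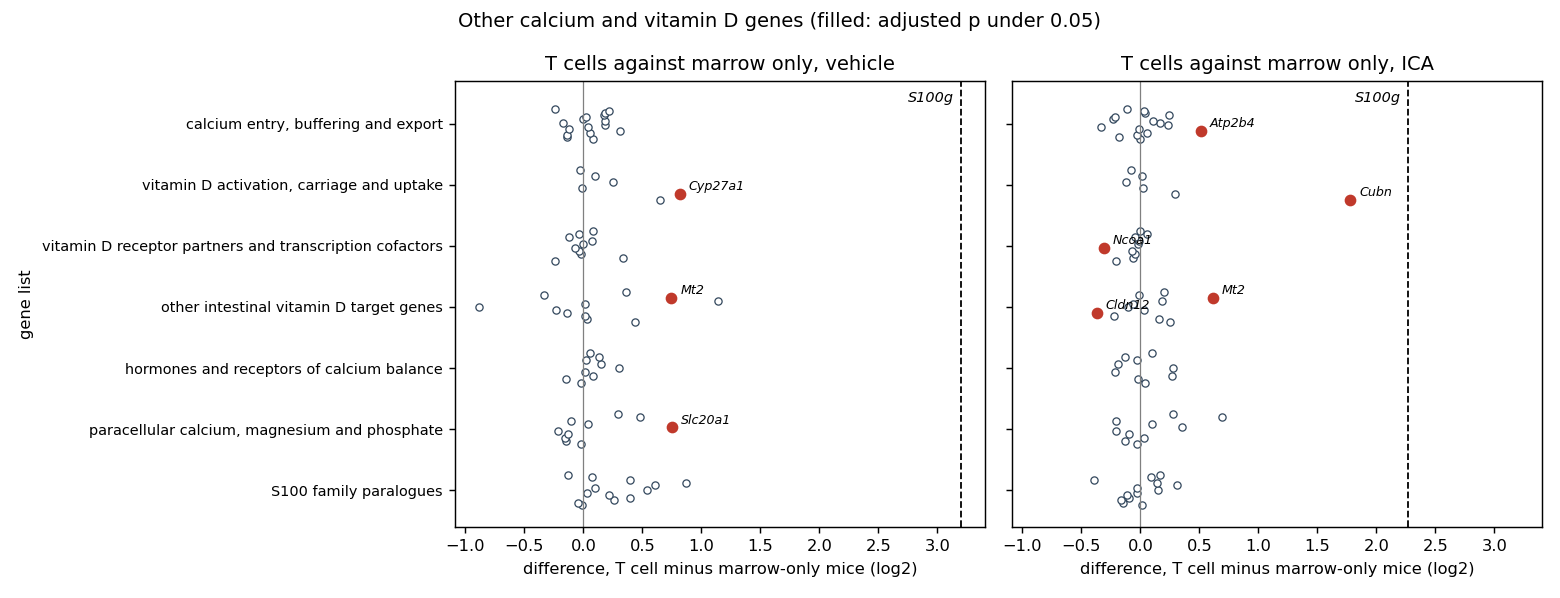
Difference in log2 signal between T cell and marrow-only mice (horizontal axis) for each gene of 7 lists (vertical axis), under vehicle and under ICA; filled points passed an adjusted p under 0.05 and the dashed line marks S100g. The 3 called genes under vehicle and 5 under ICA all lie short of the S100g line.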

How the data were processed

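Per the labels, total RNA from each ileum was amplified, labelled and hybridised to a whole-transcript Affymetrix array. The deposited table holds 41345 probe sets of 18 arrays, taken to be log2 values because they run from 1.29 to 14.1. Per the submitters' processing notes, the tools named are Partek, GenomeStudio and RMA, without versions, and the log base is not given in the sources used here. Array medians were 6.47 to 6.51, and pairs of arrays correlated at 0.978 to 0.993 across genes. The number of arrays limits the precision. Mice are labelled as biological replicates.

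The platform annotation gave 1 symbol for 23521 probe sets, several for 1814 and none listed for 16010, and 23328 of the first had an Entrez ID in the RefSeq table. A gene was read from the probe set with 1 symbol and the highest mean, with no filter on low values. One model with 4 group means was fitted with limma 3.58.1 in R 4.3.3 (moderated variance with a trend, 14 residual and 6.1 prior degrees of freedom), two-sided, with Benjamini-Hochberg adjustment. Tested on simulated data of this design with 22180 genes, a difference of 0.5 was recovered for 61.5% and of 1 for 97.5% of 200 changed genes, for the T cell comparison of the mice given ICA. False calls numbered 9 and 7. The simulated noise was normal and independent between genes, and the difference was added in full at every signal level. These rates therefore do not cover low signals that follow RNA only weakly.

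The members, lists and tests were chosen with earlier results of these data known. By rule the text names the members, the genes most like and most unlike S100g, every called gene of a pathway list, the 2 smallest p of a pathway list with none, and 3 S100 paralogues. Atp2b2 is named outside that rule, beside the other pumps of its kind. Of 81 list entries 75 were measured. Alternatives covered the samples, replicate block, normalization, a filter on low values, probe set averaging, prior and array weights.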

Additional observations from a re-analysis of the deposited data

Results flagged for a closer look

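In 3 of 28 pairs of a member and a group, 1 mouse lay far from the rest of its group, judged by the gap to its neighbour over the group's range (Dixon's criterion). Chance marks about 1 in 20 such groups. S100g was 7.67 in marrow-only ICA mouse 3, where the other 4 mice had 5.91 to 6.25. Trpv6 was 5.92 in marrow-only ICA mouse 1, where the others had 6.16 to 6.25. Rxra was 8.94 in marrow-only vehicle mouse 2, where the others had 9.14 to 9.17.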

How the results depend on the processing

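In T cells against marrow only, S100g kept its direction in both arms and its call under ICA in all 11 settings other than single omissions (2.20 to 2.78 under ICA, highest adjusted p = 0.00525) and with any 1 mouse left out (2.89 to 3.43 under vehicle, 2.01 to 2.59 under ICA, highest adjusted p = 0.00323). The vehicle values are descriptive, since that arm led to the choice of S100g. The count of other members called under ICA was 0, and 1 (Atp2b1) with quantile normalization or, with 1 mouse left out, 0 to 1. The filter on low values kept 13281 genes and, of the members, S100g, Vdr, Atp2b1 and Rxra.

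Some small uncalled differences changed sign, and the cause was not tested. With the replicate block, ICA against vehicle for Cyp27b1 in T cell mice was -0.014. Without 3 arrays that stood apart in an earlier analysis the interaction of Vdr was -0.026, and with array weights that of Atp2b1 was -0.029. Without the 4 mice with Car1 above 8, the T cell difference of Vdr among ICA mice was -0.014 and its interaction -0.019, and Cyp24a1 was -0.011 for ICA in marrow-only mice. With 1 mouse left out, ICA against vehicle in T cell mice ran from -0.0050 to 0.095 for Vdr and from -0.0065 to 0.051 for Cyp27b1. In marrow-only mice it ran from -0.033 to 0.099 for Trpv6, from -0.040 to 0.059 for Vdr, from -0.011 to 0.041 for Cyp24a1 and from -0.13 to 0.021 for Cyp27b1. The interaction ran from -0.021 to 0.084 for Vdr, from -0.0064 to 0.15 for Cyp27b1 and from -0.037 to 0.097 for Atp2b1.

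Counts over all genes moved more. T cells against marrow only called 327 genes under vehicle, 824 in a model of only the groups compared, 664 without the 3 arrays, 1074 with array weights and 94 (without marrow-only mouse 4) to 326 with 1 mouse left out. Under ICA it called 693, and 321, 1515 and 1049 in the same settings, 389 without the 4 Car1 mice and 378 to 1373 with 1 mouse left out (without marrow-only mouse 5 and mouse 1). Quantile normalization changed the split of 233 higher and 460 lower there to 326 and 382. ICA against vehicle called 3 genes in T cell mice (49, 39 and 13 in the same settings, 0 without the Car1 mice) and 1 in marrow-only mice (9 without the 3 arrays, 0 to 119 with 1 mouse left out). The interaction called 0, and 3 without the 3 arrays or the Car1 mice. The 3 pathway calls under vehicle became 7, 6 and 9, or 1 to 4 with 1 mouse left out. The 5 under ICA became 1 with only the groups compared, 11 without the 3 arrays, and 3 to 11 with 1 mouse left out (without marrow-only mouse 3 and mouse 1).

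Mice with the same number did not deviate together (median correlation 0.0019 over 25 pairs, -0.0043 over 96 pairs of different numbers). With the replicate block the S100g difference was 3.20 under vehicle and 2.26 under ICA (adjusted p = 7.16e-05), and 382 and 685 genes were called.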
